A study of Mus musculus with 12 samples.

Results

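The proximal part of mouse chromosome 7 holds large clusters of zinc finger, vomeronasal receptor and secretoglobin genes. It is described here by the regions of an H3K9me3 table that start from 5 to below 50 Mb of chromosome 7 (mm10). The choice used position alone and no measured value. It took 1922 of the 68291 regions of the authors' deposited table (2.81%), and the other 2309 regions of chromosome 7 serve as the comparison. Zinc finger genes give the stretch its working name, but regions in or within 5 kb of one were 125 of the 1922, and by number of genes the 170 Vmn1r genes outnumber the 96 zinc finger genes.

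The study compared Tex19.1+/- (heterozygous) with Tex19.1-/- (knockout) mouse embryonic stem (ES) cells by chromatin immunoprecipitation and sequencing (ChIP-seq) for H3K9me3, to ask where the mark differs between the genotypes. Tex19.1, found in mammals alone, is active in the germ line and in pluripotent cells. Both genotypes were derived from E14Tg2a, an ES line of 129/Ola background, were grown in serum with leukaemia inhibitory factor and were used at passages 12 to 20. Each genotype has 3 immunoprecipitated and 3 input libraries, so the series has 12 libraries. In 6 of the 12 the genotype field goes against the title, and the titles were followed. Nothing in the labels says that the 3 libraries of a group are separate cultures or clones, and the p-values may then measure only technical spread. A ChIP table cannot show whether the cells expressed the markers of ES cells. The deposited table gives 1 comparison of the genotypes, with no value of any single library, so depth and replicate spread could not be given. Which genotype was the reference is not given in the sources used here, so a change is described by its sign as deposited.

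H3K9me3, trimethylation of lysine 9 on histone H3, marks constitutive heterochromatin and silenced repeats. KRAB zinc finger proteins bind transposable elements and recruit TRIM28 and, with it, SETDB1, an enzyme that writes the mark, and their own genes commonly carry it over the exons that encode the zinc finger arrays. Vmn1r and Vmn2r genes encode pheromone receptors of vomeronasal neurons. Scgb1b and Scgb2b genes encode the subunits of salivary and lacrimal androgen-binding proteins. These families grew by tandem duplication, so that neighbouring copies can be nearly identical.

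The sequences of some of these copies are shown first. In the Vmn1r, Vmn2r and Scgb families, genes without a listed region shared promoter sequence with other genes more often than genes with one. This was not seen in every family. Over all genes of the stretch it rested largely on the long gaps described below. Each line gives the 150 bases before a gene's start, 5′ to 3′ on the gene's strand, from RefSeq (GRCm38.p6, the assembly named mm10). Capitals mark bases that do not match the 300-base promoter of the first gene of the set in an alignment. The sequence of Scgb2b10 is repeated letter for letter at Scgb2b15 and Scgb2b17. Scgb2b10, Scgb2b30 and Scgb2b12 had no region within 5 kb, whereas Scgb2b21, Scgb2b1 and Scgb2b2 had 4, 7 and 5.

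Scgb2b10 (chr7:32093953-32094102, minus strand): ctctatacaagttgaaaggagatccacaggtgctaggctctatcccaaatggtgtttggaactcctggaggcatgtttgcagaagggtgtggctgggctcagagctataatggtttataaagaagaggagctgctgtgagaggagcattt

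Scgb2b30 (chr7:32148033-32148182, minus strand): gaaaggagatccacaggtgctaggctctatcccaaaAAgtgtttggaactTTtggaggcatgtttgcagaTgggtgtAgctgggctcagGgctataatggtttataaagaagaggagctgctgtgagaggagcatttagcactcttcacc

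Scgb2b12 (chr7:32327246-32327395, minus strand): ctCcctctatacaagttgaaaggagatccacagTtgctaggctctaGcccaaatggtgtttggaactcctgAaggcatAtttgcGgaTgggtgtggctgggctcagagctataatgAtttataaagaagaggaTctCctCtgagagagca

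Scgb2b21 (chr7:33520456-33520605, minus strand): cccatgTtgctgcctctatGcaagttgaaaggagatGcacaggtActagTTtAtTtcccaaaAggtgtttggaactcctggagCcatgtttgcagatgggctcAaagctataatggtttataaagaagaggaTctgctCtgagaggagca

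Scgb2b1 (chr7:31263586-31263735, plus strand): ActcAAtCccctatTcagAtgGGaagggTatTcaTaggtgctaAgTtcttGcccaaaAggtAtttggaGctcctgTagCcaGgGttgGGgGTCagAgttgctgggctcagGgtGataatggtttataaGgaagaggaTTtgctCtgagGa

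Scgb2b2 (chr7:31302619-31302768, plus strand): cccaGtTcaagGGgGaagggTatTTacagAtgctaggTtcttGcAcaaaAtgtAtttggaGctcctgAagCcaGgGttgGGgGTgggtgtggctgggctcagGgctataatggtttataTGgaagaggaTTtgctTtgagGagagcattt

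Scgb2b30 and Scgb2b12 differed from the first sequence at 7 and 12 bases. Scgb2b21, Scgb2b1 and Scgb2b2 differed at 23, 42 and 36. These counts, and the one for Vmn1r129 below, also include bases missing from a copy, which no capital marks. Among vomeronasal genes, the sequence of Vmn1r242 was shared by 7 genes in all, with Vmn1r111, Vmn1r118, Vmn1r131, Vmn1r138, Vmn1r166 and Vmn1r257, and none of the 7 had a region. Vmn1r129, which had 1 region, differed from it at 24 bases. Vmn1r129 was no unique copy, since its promoter was 99.7% identical to that of another gene, and of the 18 Vmn1r genes with a region it shared the most promoter sequence.

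Vmn1r242 (chr7:20233829-20233978, minus strand): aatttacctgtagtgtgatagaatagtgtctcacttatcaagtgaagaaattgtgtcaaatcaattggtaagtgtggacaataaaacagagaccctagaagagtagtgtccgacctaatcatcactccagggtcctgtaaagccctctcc

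Vmn1r129 (chr7:21361292-21361441, minus strand): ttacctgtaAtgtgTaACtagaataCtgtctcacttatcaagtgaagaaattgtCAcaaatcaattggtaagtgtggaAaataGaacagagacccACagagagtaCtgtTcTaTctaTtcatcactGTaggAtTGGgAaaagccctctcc

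H3K9me3 regions were dense in the stretch. It held 42.7 regions per Mb against 23.7 on the rest of chromosome 7, a ratio of 1.80, and so 45.4% of the chromosome's regions in 31.6% of the span from its first to its last region. The regions covered 2.63 Mb, which is 5.84% of the stretch, against 2.65% of the rest. They were only slightly longer and stronger than elsewhere on the chromosome. The median width was 797 bp against 726 bp, and the median of the average log2 CPM (log2 of read counts scaled to library size, in the authors' deposited table) was 3.16 against 2.93. Per kb of region the signal was 13.4 CPM against 12.6. These are descriptions of 1 table, and the differences were not tested.

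Density varied widely along the stretch. Its 45 bins of 1 Mb held from 1 to 137 regions, with a median of 38 against 20 on the rest of the chromosome. More than 75 regions were found in 7 bins of the stretch and in 1 bin elsewhere. The bin from 33 to 34 Mb held 137 regions, the most of the 2414 windows of 1 Mb in the genome with at least 8 regions. The bin from 31 to 32 Mb held 109, the fifth most. The bin between them, from 32 to 33 Mb, held 1 region. All 3 bins overlap the Scgb1b and Scgb2b cluster, which runs from 31.3 to 34.1 Mb. Other dense bins were at 11 Mb (96 regions) and 14 Mb (99 regions), in clusters of Vmn1r, Obox, Sult2a and Zscan4 (zinc finger) genes. Another was at 42 Mb (95 regions), among Vmn2r and zinc finger genes. Fewer than 5 regions were found in the bins starting at 9, 20, 21, 22 and 32 Mb.

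**Figure D1:**
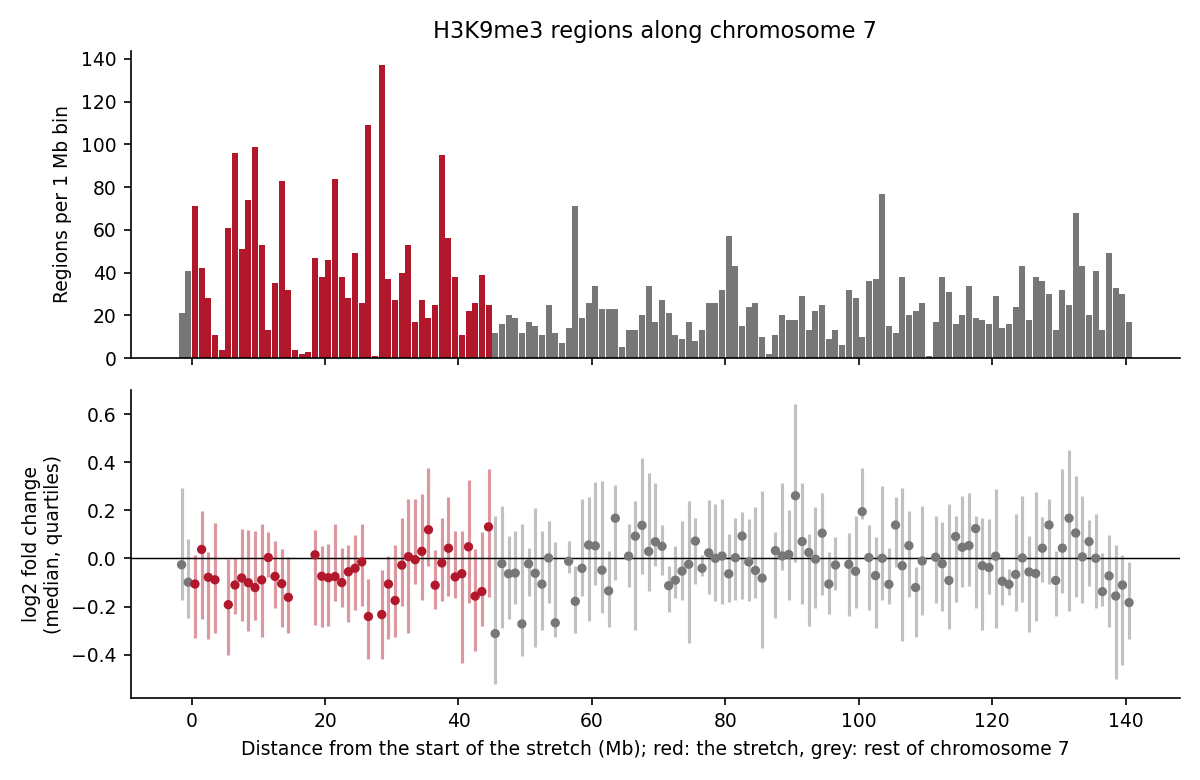
Upper panel: regions per 1 Mb bin along chromosome 7, by distance from the start of the stretch in Mb. Lower panel: median log2 fold change (points) with quartiles (lines) of bins with at least 8 regions. The stretch is red and the rest grey. The tallest red bar holds 137 regions, and the 2 lowest red points are the bins with 137 and 109 regions.

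The longest empty parts of the stretch lay in its receptor and secretoglobin arrays. Gaps of at least 400 kb between consecutive regions numbered 7 in the stretch, 5.84 Mb in all, and held 214 genes, of which 110 were Vmn1r, Vmn2r or Scgb genes. The rest of chromosome 7 had 13 such gaps, with 0 genes of these families. How many of these genes lie on the rest was not counted, so this 0 has no background. The longest gap there, of 0.962 Mb, held 11 olfactory receptor genes. The longest gaps of the whole chromosome were both in the Vmn1r array from 20.1 to 24.1 Mb. One ran for 1.43 Mb (chr7:21365870-22794007) and the other for 1.17 Mb (chr7:20065185-21237027), and each held 33 Vmn1r genes. Of the 99 Vmn1r genes in that array 4 had a region within 5 kb, whereas in the array from 5.1 to 6.0 Mb 12 of 19 had one and in the array from 10.3 to 13.2 Mb 18 of 47. Gaps of 0.829, 0.652 and 0.605 Mb held Vmn2r genes. Of the 42 Vmn2r genes from 7.2 to 10.2 Mb 5 had a region, against 12 of 15 from 41.4 to 43.0 Mb. Gaps of 0.707 and 0.446 Mb (chr7:32387798-33094311 and chr7:31940781-32387280) held 10 and 7 Scgb genes.

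Genes inside the gaps shared promoter sequence with other genes. A promoter, 250 bases before to 50 after a gene's start, was counted as sharing when it held a word of 75 bases, the read length of this series, that also occurs in the promoter of another gene in the RefSeq table. Of the 94 genes inside the gaps with a promoter in that table, 90 shared a word (95.7%), against 104 of 917 in the rest of the stretch (11.3%). Over all genes of the stretch, 151 of 646 without a region shared a word (23.4%) and 43 of 365 with one (11.8%). Put the other way, 22.2% of sharing genes and 39.4% of non-sharing genes had a region. Gaps hold no region by definition, and 90 of the 194 sharing genes lay inside them. The shares over all genes thus rest largely on the gap count, and the family splits below partly repeat it. Only a gene within 5 kb of a gap's edge can lie inside and have a region. Up to 43 of the 104 sharing genes outside the gaps can thus have had one, against 39.4% of all non-sharing genes. The exact count was not worked out, and a link over all genes outside the gaps is not shown. The split by sharing was seen in both receptor families and in Scgb, but not in every tandem family. For Vmn1r it was 71 of 97 without a region and 4 of 18 with one, for Vmn2r 21 of 23 and 6 of 12, and for Scgb 13 of 15 and 3 of 14. For Klk it went the other way, with 0 of 13 and 3 of 13, and 4 of the 5 Obox genes with a region and a promoter in the table shared a word. The median of the best identity to another promoter was 100% against 69.5% for Vmn1r and 99.3% against 82.0% for Scgb. Zinc finger genes showed little sharing on either side, with 2 of 41 and 3 of 41, and the median best identity of those with a region was 51.0%. How reads that fit several copies were counted is not given in the sources used here. Assembly gaps and repeats were not analysed here, and the part of shared sequence in the low density was not tested.

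**Figure D2:**
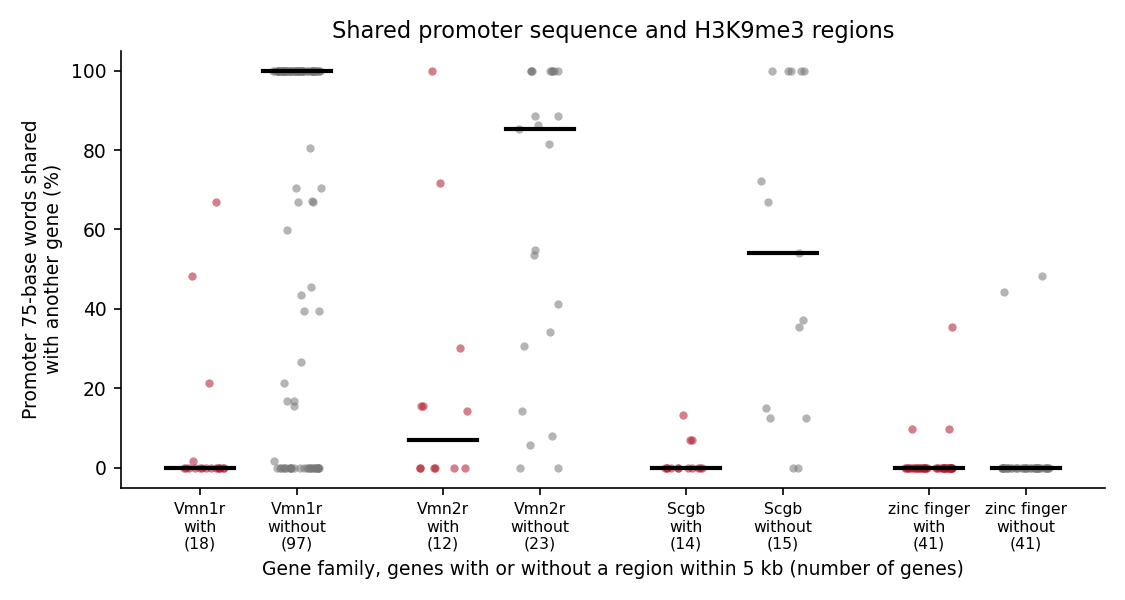
Share of a promoter's 75-base words that occur in another gene's promoter (%), for genes with a region within 5 kb (red) and without (grey). Each point is a gene and each bar a median, with the number of genes in brackets. In Vmn1r the median is 100 among the 97 genes without a region, and most of the 18 genes with one lie at 0.

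In the comparison of the genotypes, log2 fold changes in the stretch were small and more often negative than elsewhere. In the authors' deposited table, negative values were found for 1224 of the 1922 regions (63.7%), against 53.1% on the rest of chromosome 7 and 50.8% in the whole table. The median log2 fold change was -0.09 (95% order-statistic interval over regions -0.11 to -0.08), against -0.02 (-0.04 to -0.01) on the rest of the chromosome and -0.01 in the whole table. These intervals treat neighbouring regions as independent, cover no spread between libraries and are no test. The quartiles in the stretch were -0.28 and 0.10, and 85.6% of its regions lay within 0.5 of 0. After the median of regions with similar log2 CPM was subtracted, the medians were -0.06 in the stretch and 0.00 on the rest of the chromosome.

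The negative lean was present at most signal levels. In regions with a log2 CPM from 2 to 3 the median log2 fold change was -0.09 in the stretch and 0.01 on the rest of the chromosome. From 3 to 4 it was -0.07 and -0.01, from 4 to 5 -0.11 and -0.04, and from 5 to 6 -0.11 and -0.08. By count the lean from 5 to 6 was not greater in the stretch, with 75.1% of regions negative against 77.0% on the rest. From 6 to 7 the median was -0.13 and -0.05. There 63 of the 71 regions of the stretch and 33 of the 48 on the rest were negative. At 7 or more it was -0.14 and 0.02, over only 23 and 13 regions. In the weakest regions, below 2, it was -0.02 against -0.05. The intervals of the stretch and the rest overlapped in that class, from 5 to 6 and at 7 or more. In the whole table the median also moved with signal, from 0.08 in the weakest class to -0.09 in the strongest. The part of this trend in the values of the stretch was not tested beyond the like-signal medians above.

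**Figure D3:**
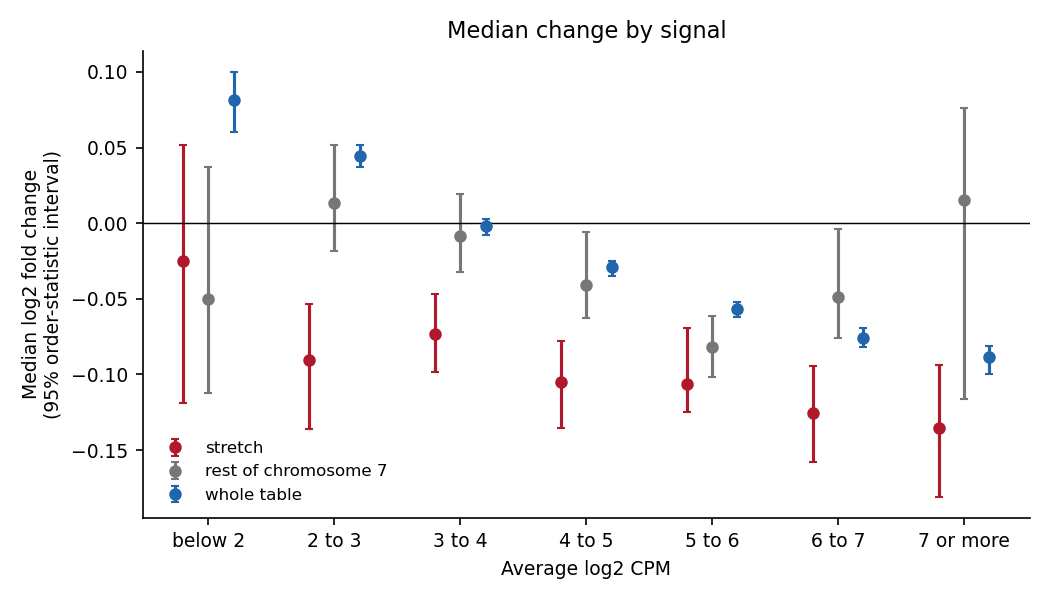
Median log2 fold change by class of average log2 CPM in the stretch (red), the rest of chromosome 7 (grey) and the whole table (blue), with 95% order-statistic intervals over regions. The red median lies below the grey one in 6 of the 7 classes, the class below 2 being the exception.

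By position, the median was negative in 31 of the 40 bins of the stretch with at least 8 regions (77.5%) and in 50 of 93 on the rest of the chromosome (53.8%). With bins of 2 Mb these counts were 18 of 21 and 30 of 50. There the stretch ran from 6 to 50 Mb, and the bin from 4 to 6 Mb, with a median of -0.10, was counted with the rest. The lowest 1 Mb medians of the stretch were -0.24 from 31 to 32 Mb and -0.23 from 33 to 34 Mb. They rank 39 and 43 from the lowest among the 2414 windows with at least 8 regions. Together these bins held 246 regions, of which 200 were negative (81.3%). Without them the median of the stretch was -0.07 and its difference from the rest of the chromosome -0.05 in place of -0.07. The highest 1 Mb median, 0.13, was at the far end, from 49 to 50 Mb, and the bin from 40 to 41 Mb had 0.12. The dense bins at 11 and 14 Mb had medians of -0.11 and -0.12, whereas the dense bin at 42 Mb had -0.02.

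Few single regions passed the test. The authors' deposited false discovery rate (FDR, the p-value adjusted over the whole table) was below 0.05 for 4 of the 1922 regions (0.208%), against 0.281% of all regions of the table. All 4 were negative, against a share of negative calls in the table of 0.0893%. The 3 calls on the rest of chromosome 7 were all positive, against 0.192% positive calls in the table. With the p-values adjusted without chromosomes 11 and 16, 95 regions of the table were called in place of 192. At an unadjusted deposited p-value below 0.05, from a comparison for which the submitters' processing notes name edgeR, 90 regions of the stretch passed, which is 4.68% against 4.74% in the table. Of these 81 were negative, 4.21% of the stretch against 2.05% in the table, and 9 were positive, 0.468% against 2.7% in the table. On the rest of chromosome 7 the shares were 1.69% negative and 1.04% positive. The bins from 31 to 32 and 33 to 34 Mb held 32 of the 81 negative regions and 1 of the 9 positive ones.

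**Figure D4:**
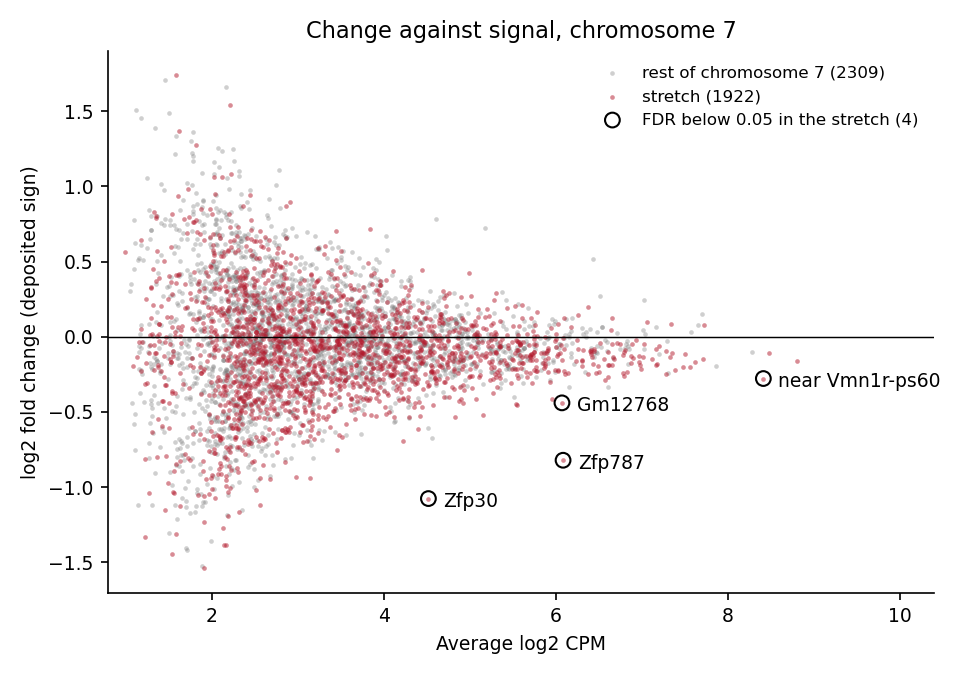
Deposited log2 fold change against average log2 CPM for the regions of chromosome 7, with the stretch in red and the rest in grey. Circles mark the 4 regions of the stretch with an FDR below 0.05, which all lie below 0, between -0.28 and -1.08.

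The call with the smallest FDR lay at the downstream end of Zfp787, a zinc finger gene on the minus strand (gene body 6131489 to 6159380). The region chr7:6130865-6135091 had a log2 fold change of -0.82 (SE 0.12, derived from the deposited p-value) at 68.0 CPM, and its FDR was 8.94e-09. The nearest listed regions on either side, 11478 and 65854 bp away, had -0.22 and -0.11, each with an FDR of 1. The largest fold change among the calls was at Zfp30, a KRAB zinc finger gene on the plus strand (29783968 to 29794703). Its region chr7:29792034-29793960, also in the downstream part of the gene, had -1.08 (SE 0.21) at 23.0 CPM and an FDR of 0.000278. Its neighbours were not alike, with 0.02 at 32936 bp before and 0.58 at 10971 bp after it, and neither was called.

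The other 2 calls were in long regions outside zinc finger genes. The region chr7:12010305-12018062 lay 4624 bp from Vmn1r-ps60, a vomeronasal receptor pseudogene. It was among the strongest of the stretch at 342 CPM, or 44.1 CPM per kb, and its log2 fold change of -0.28 (SE 0.05) was small, with an FDR of 0.000143. The region chr7:33842005-33846922 covered the pseudogene Gm12768 inside the span of the secretoglobin cluster, with -0.44 (SE 0.11) at 67.4 CPM and an FDR of 0.0448. Of its 6 nearest neighbours 5 were negative, from -0.15 to -0.50, and 1 was 0.57, and none was called. This last call lay close to the threshold, and with the p-values adjusted without chromosomes 11 and 16 its adjusted p was 0.0671. The next regions by FDR were the longest one of the stretch (0.098), one near Scgb2b21 (0.105) and one near Mrgpra1 (0.191), all negative.

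The other regions of highest signal had small fold changes. The longest, chr7:6605073-6626656, measured 21583 bp, lay 25092 bp from Zim2 and had 449 CPM and a log2 fold change of -0.16 (SE 0.05). The next, chr7:34021421-34040478, measured 19057 bp, began at the start of the secretoglobin gene Scgb1b27 and had 359 CPM and -0.11 (SE 0.05, FDR 0.958). The region chr7:28216744-28228599, 7052 bp from the predicted gene Gm18672, had 212 CPM and 0.08. The region chr7:26488461-26497621, 12319 bp from Nlrp4a, had 210.3 CPM and -0.15. Among the 5 longest were also chr7:26858284-26869180, 15020 bp from the cytochrome gene Cyp2a5, with -0.20, and chr7:18379846-18389757, 2224 bp from the predicted gene Gm5997, with -0.09. At the edges of the stretch nothing stood out. The last region before 5 Mb had 0.08 and the first after it -0.03, and the last before 50 Mb, in the glycine transporter gene Slc6a5, had 0.39, followed by -0.31 in Nell1. All 4 had an FDR of 1.

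Most regions did not lie at genes of the named families. Of the 1922 regions 467 (24.3%) overlapped a protein-coding gene body, 206 (10.7%) overlapped only another gene and 1249 (65.0%) lay between genes, against 60.3% between genes on the rest of chromosome 7. Exons were not analysed here. A total of 567 regions (29.5%) lay in or within 5 kb of a gene of the 16 families examined, and 819 (42.6%) lay over 5 kb from any gene. Among all genes of the stretch with a promoter in the RefSeq table, 365 had a region within 5 kb and 646 had none. Of 11 listed housekeeping genes 0 had a region within 5 kb, and 2 had one within 10 kb. None of the 9 olfactory receptor genes had a region within 5 kb.

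Zinc finger genes were marked in part, and their median was close to 0. Of 96 genes 48 had a region within 5 kb. Their 125 regions had a median log2 fold change of -0.03, with 68 negative and 57 positive. Of the 125, 2 were called (Zfp787 and Zfp30), against 0.281% of regions in the table and 0.208% in the stretch. At an unadjusted p below 0.05, 8 regions were negative (6.40%, against 2.05% in the table and 4.21% in the stretch). None was positive, against 2.7% in the table and only 0.468% in the stretch. The strongest region of each gene was negative in 30 of the 48 genes and ranged from -1.08 to 0.85. Because neighbours share regions, these are 43 different regions, of which 27 were negative. The genes with most regions were Zfp936 with 20, whose strongest region chr7:43126776-43131783 had 178 CPM and -0.20 (SE 0.07, FDR 0.478), and Zfp536, a long gene with 15 regions. Other strong regions lay in Zfp180, with 126 CPM and -0.13, and in Zfp658, with 101 CPM and 0.13. These were also the strongest regions within 5 kb of Zfp112 and Zfp719. A region 3717 bp from Zfp420, overlapping no gene, had 118 CPM and -0.05. One region shared by Zfp108 and Zfp109 had -0.61 (SE 0.22, FDR 0.442). By cluster, the 15 genes from 6.1 to 7.2 Mb had a median of 0.10 over 19 regions, the 16 genes from 29.8 to 30.6 Mb -0.09 over 15, the 14 genes from 24.1 to 25.2 Mb -0.11 over 10, and the 10 genes from 41.6 to 43.6 Mb 0.02 over 43. The 20 genes from 10.5 to 13.0 Mb had -0.03 over 13 regions and the 9 genes from 27.7 to 28.4 Mb 0.04 over 8.

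Of 91 zinc finger promoters 1 overlapped a region (1.10%), that of the imprinted gene Peg3, against 41 of 1204 promoters in the stretch (3.41%) and 2.73% of all promoters in the RefSeq table. At these low shares the count is too small to set zinc finger promoters apart. Inside the body of 27 zinc finger genes were centred 80 regions, which gave 81 positions because Zfp61 and Zfp94 overlap and share a region. When each gene was divided into 3 equal parts, 37 positions fell in the last part, 17 in the middle and 27 in the first, with a median at 0.62 of the gene's length from its start. Zfp936 and Zfp536 supplied 32 of the positions and 17 of those in the last part. Without these 2 genes the counts were 20, 12 and 17, a choice made after the values were seen.

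The imprinted Peg3 domain, expressed from the paternal copy at Peg3 and Usp29, had 10 regions at 5 of its 6 listed genes and a median of -0.02, or 0.10 when regions within 10 kb were taken. The region chr7:6726557-6731203 covered the shared promoter of Peg3 and Usp29 and had 83.4 CPM and -0.24 (SE 0.10, FDR 0.81).

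Secretoglobin genes had the lowest median among the families with more than 3 regions. Of 48 Scgb1b and Scgb2b genes 20 had a region, and the 72 regions had a median of -0.27, with 56 negative and 16 positive. At an unadjusted p below 0.05 there were 11 negative (15.3%, against 2.05% in the table and 4.21% in the stretch). There was 1 positive (1.39%, against 2.7% in the table and 0.468% in the stretch), and 0 were called. The strongest region of each gene was negative in 18 of 20 genes, which share 19 regions. It was negative in all 13 genes whose strongest region had at least 16 CPM, which rest on 12 regions because Scgb2b24 and Scgb1b24 share 1. Scgb2b3 had -0.52 (SE 0.16) at 35.5 CPM with an FDR of 0.209, in a region over its promoter. The region 3715 bp from Scgb2b21 had -0.42 (SE 0.12) at 62.3 CPM with an FDR of 0.105. Scgb2b1 had -0.29 at 95.4 CPM and Scgb1b30 -0.17 at 117 CPM, and the strongest regions of the pseudogene Scgb1b22-ps and of Scgb2b27 were the positive ones, with 0.10 and 0.53. Scgb promoters were often marked, with 11 of 29 overlapping a region (37.9%). This list was added after the bins at 31 and 33 Mb had been seen, so its low median is part of the same pattern and not a second one.

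The pheromone receptor families were close to the median of the stretch. Vmn1r genes had 48 regions with a median of -0.09 (-0.06 within 10 kb), 30 negative and 18 positive. Of the 48, 1 was called, near Vmn1r-ps60, against 0.208% of regions in the stretch and 0.281% in the table. Vmn2r genes had 55 regions with a median of -0.10, 35 negative and 20 positive. None was called. At an unadjusted deposited p below 0.05, 2 were negative (3.64%, against 2.05% in the table and 4.21% in the stretch). At that threshold 0 were positive, against 2.7% in the table and 0.468% in the stretch. Their strongest region, chr7:42249487-42255777, 4276 bp from Vmn2r61, had 101 CPM and -0.14 (FDR 1). The Mrgpr family, receptors of itch neurons and mast cells, had 21 regions with a median of -0.17, 16 negative and 5 positive, and a median of -0.06 over the 6 regions inside gene bodies. The region near Mrgpra1 (chr7:47330839-47332855) had -0.45 (SE 0.14), whereas the next one, inside that gene, had -0.06.

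Families of germ cells, embryo and placenta were also slightly negative, with 0 calls in each. At an unadjusted deposited p below 0.05, Obox had 1 negative region (2.56%), Nlrp 1 negative and 1 positive (1.79% each), and Ceacam and Psg 0. The shares over all regions were 2.05% negative and 2.7% positive in the table, and 4.21% and 0.468% in the stretch. Obox homeobox genes, active in oocytes and early embryos, had 39 regions with a median of -0.09 (-0.15 within 10 kb). The strongest, chr7:14507361-14513675, 4296 bp from Obox4-ps1, had 97.5 CPM and -0.26 (SE 0.10, FDR 0.52). Nlrp genes, several of which act in oocytes, were widely marked, with 56 regions at 10 of 11 genes and a median of -0.06. A region in Nlrp5-ps had 0.72 (SE 0.26) and one in Nlrp2 -0.93 (SE 0.38), with FDR values of 0.527 and 0.727. Ceacam and Psg genes, the latter for placental glycoproteins, had 50 regions with a median of -0.08 (-0.12 in gene bodies alone), and the strongest, in Psg16, had 103 CPM and -0.15.

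The enzyme families had 0 calls and medians of either sign. At an unadjusted deposited p below 0.05, Sult2a had 1 positive region (2.78%, against 2.7% in the table and 0.468% in the stretch). Cyp2 had 1 negative (3.03%, against 2.05% and 4.21%) and Klk 0. Sult2a genes, sulfotransferases of steroids and bile acids, had 36 regions at 7 of 9 genes with a median of -0.09. Their strongest region, in Sult2a4 (chr7:13968404-13977333), had 164 CPM and -0.11. Cyp2 genes, cytochromes of drug and steroid metabolism, had 33 regions with a median of -0.02, or -0.09 over 54 regions within 10 kb, of which 36 were negative. A weak region in Cyp2b19 had -1.17 (SE 0.50, FDR 0.81) at 5.00 CPM. Klk genes, kallikrein proteases, had a median of 0.12 over 35 regions, which became -0.04 when regions outside gene bodies were left out. The strongest Klk region, in Klk1b7-ps, had 110.3 CPM and -0.12. The Siglec, Cd33 and Cd22 list, receptors of immune cells, had 3 regions, and Saa genes, for acute-phase proteins, had 2, so their medians of 0.46 and -0.04 rest on few values.

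**Figure D5:**
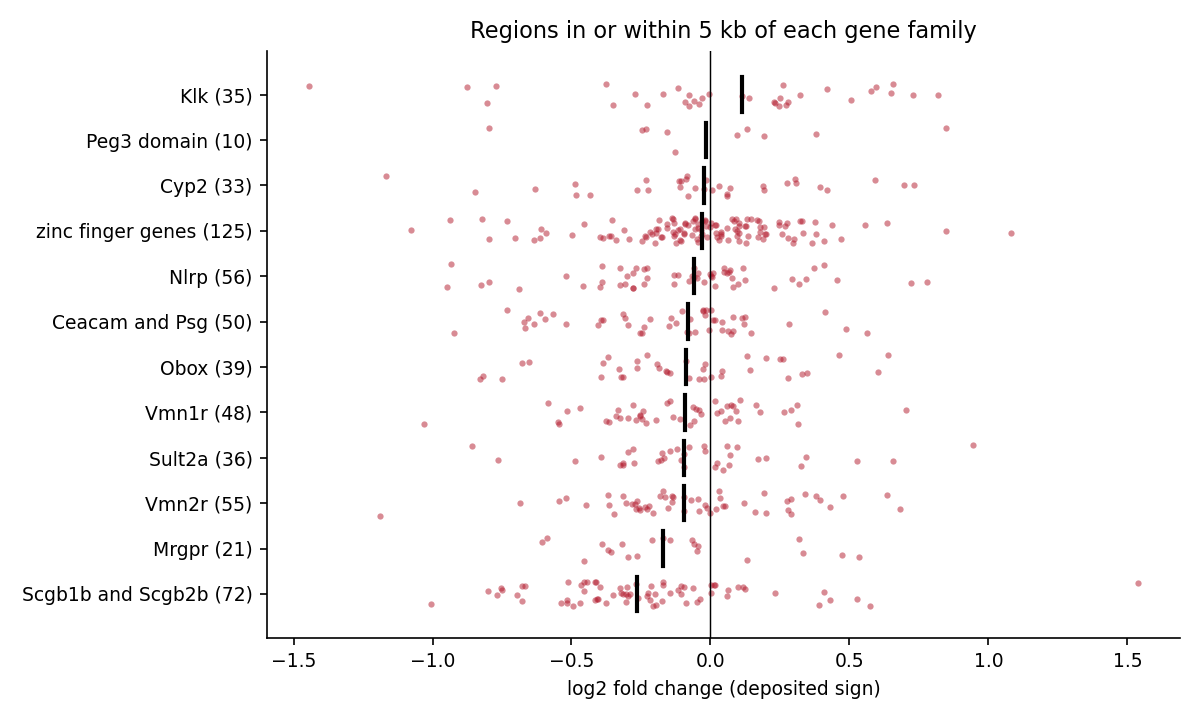
Deposited log2 fold changes of the regions in or within 5 kb of 12 gene families of the stretch, with the number of regions in brackets. Each point is a region and each bar the family's median, from -0.27 for Scgb1b and Scgb2b to 0.12 for Klk. Families with 3 or fewer regions are left out.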

How the data were processed

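Formaldehyde-fixed chromatin was immunoprecipitated with an Abcam H3K9me3 antibody and sequenced as 75-nt pairs, per the labels' protocols. Per the submitters' processing notes the tools were edgeR (version not given), bedtools 2.25.0, HOMER 4.8 and Bowtie2 2.2.6, on build mm10. The definition of regions and the use of input are not given there. Per the file headers, the authors deposited for each region its log2 fold change, its average log2 CPM, its p-value and its FDR. It has 0 columns of per-library values, so the planned count test was replaced by a description, as the plan allowed.

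Adjusting the authors' p-values again by Benjamini-Hochberg gave the same 192 calls. To derive an SE, the size of a change was divided by the normal deviate that its p-value stands for, where that deviate was at least 1, and otherwise it is the typical value of regions of like signal. It inherits the assumptions of the authors' test. Scripts used Python 3.11.15, pandas 2.3.3, numpy 2.4.6, scipy 1.17.1 and edlib 1.3.9.post1, and were tested on simulated data. Genes and promoters came from RefSeq tables of GRCm38.p6.

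Named regions are the calls, the 5 strongest and 5 longest, the edges, and per family the 4 strongest and 2 of smallest p. Any other region named was picked with its value in view. The members and lists were chosen with earlier results of these data known. The Scgb list, the gaps and the 75-base words were added after the values were seen. Alternatives changed the threshold, adjustment, signal and width filters, bins and gene distance.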

Additional observations from a re-analysis of the deposited data

How the results depend on the processing

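No paired analysis was possible because the deposited table has no values of single libraries, and leaving out single libraries could not be run for the same reason. The calls in the stretch numbered 4, and 3 with a deposited FDR below 0.01, with Holm adjustment, without chromosomes 11 and 16 or without 5 to 7 Mb, 4 without chromosomes X and Y, and 6 among regions of at least 1000 bp. All calls were negative in each of these. The region at Gm12768 lost its call at an FDR below 0.01, under Holm adjustment (adjusted p 1) and without chromosomes 11 and 16 (0.0671). The difference of median log2 fold change from the rest of chromosome 7, -0.07, was -0.0554 in regions with a log2 CPM of at least 4, -0.0567 in regions of at least 1000 bp and -0.0515 without 31 to 32 and 33 to 34 Mb, an alternative chosen after seeing the data. It stayed negative under the other alternatives tried. The share of the chromosome's regions found in the stretch, 45.4%, was 51.6% at a log2 CPM of at least 4 and 49.8% in regions of at least 1000 bp. Regions at listed families numbered 567, 339 in gene bodies alone and 776 within 10 kb. With words of 50 bases, also added later, 26.2% of promoters without a region and 20.0% with one shared a word, and with words of 100 bases 22.6% and 9.59%. The causes of these shifts were not tested. With no library depths, the precision of a region's value rests on its derived SE, whose median in the stretch was 0.50 at a log2 CPM of 2 to 3 and 0.10 at 6 to 7.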
